A study of Arabidopsis thaliana with 6 samples.

Results

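Loss and gain of the chromatin enzyme JMJ28 were set against each other directly: seedlings of the jmj28 mutant were compared with seedlings of JMJ28np5-OE, a line in which the JMJ28 transcript is raised. The description covers all genes for which the authors' deposited table of this pair gives a test. These are 23540 of 34262 listed genes, after 2 genes (FT and CO) were left out because their entries do not hold their own values. The study sequenced RNA of Arabidopsis thaliana seedlings of the Col-0 ecotype, 14 days old and grown in long days at 22 °C, with 2 libraries for each of 3 genotypes (jmj28, JMJ28np5-OE and WT). What np5 stands for, which promoter drives JMJ28, which allele jmj28 is, and how many plants or lines a library pools are not stated in the labels. No age, growth condition or treatment in the labels separates the genotypes.

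JMJ28 is a histone demethylase of the JmjC domain family and of the KDM3 type, whose members remove methyl groups from lysine 9 of histone H3. Methylation at that lysine marks silent chromatin in plants, and it is reinforced by DNA methylation. JMJ28 is known for a role in the activation of CO, a central gene of flowering in long days. Most genes described below belong to circuits with other tasks, such as the rapid stress response, defence hormones, mineral nutrition and cell division. Flowering genes are described as well.

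JMJ28 itself (AT4G21430, listed as B160, chromosome 4, 11407804 to 11412279, TAIR10) checked the labels. Levels are given in RPKM, reads per kilobase of exon scaled to library size, first for the deeper and then for the shallower library of a genotype. The deposited means allowed the reads of single libraries to be recovered for the genotypes with the highest and second-highest mean of a gene, whereas the lowest mean had to be computed from the fold change in the authors' deposited table and is called a derived mean here. JMJ28 had a derived mean of 3.19 RPKM in jmj28, against 244 and 307 RPKM in JMJ28np5-OE and 6.9 and 6.5 RPKM in WT. The log2 fold change was -6.49 (listed FDR 0) by the authors' deposited table. The mutant thus still held reads of the gene, and where in the gene they fall was not examined. The contrast therefore runs between a residual level and a level far above WT, not between absence and presence. None of the other 5 genes of the KDM3 type passed FDR 0.05 in the authors' deposited table, and 1 of them had an unadjusted p under 0.05. That gene, AT1G62310, had 7.2 and 7.54 RPKM in jmj28 and 7.53 and 11.5 RPKM in JMJ28np5-OE, with a log2 fold change of -0.43 (FDR 0.0971) by the authors' deposited table.

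A gene was called at an FDR under 0.05 in the authors' deposited table, the only test available over all genes. With 2 libraries for each genotype the spread between these samples may be technical. The test behind the deposited p-values is not given in the sources used, so how they measure that spread is not known. There, 971 genes (4.12%) were called higher and 1716 (7.29%) lower in jmj28 than in JMJ28np5-OE, and the median log2 fold change over all tested genes was -0.015 in the authors' deposited table. At least 2-fold changes were found for 116 genes (0.493%) called higher and 523 (2.22%) called lower in the authors' deposited table. The called genes had a median log2 fold change of 0.55 where higher and -0.69 where lower in the authors' deposited table. Reads were known in all 4 libraries for 6442 tested genes, and an own test was run on the 6097 of them that were not at 0 in all 4. On log2(RPKM + 1), limma called 1 of them (0.0164%), at an adjusted p of 0.038, and 383 had an unadjusted p under 0.05. That gene was AT2G20870, lower in jmj28 with a log2 difference of -2.51 ± 0.20 (SE). Many of the genes with the smallest unadjusted p by limma lie in the chromosome 5 stretch described below. Among the same 6097 genes the authors' deposited table called 198, 1 of which was also called by limma. Because the lowest mean of a gene gave no reads, these are genes in which neither genotype had a lower mean than WT. The limma test thus describes those genes only and is no check on the contrast as a whole.

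Library totals were 13549528 and 11791666 reads in jmj28 and 12380403 and 10632893 in JMJ28np5-OE. The spread of log2 ratios between both libraries was an SD of 0.18 in jmj28 and 0.27 in JMJ28np5-OE over genes of at least 5 RPKM with known libraries. These are different genes in each genotype. Of 24 early stress factors described below, libraries were known for 5 in jmj28 and 22 in JMJ28np5-OE. The SDs therefore do not settle which genotype's libraries stood further apart. Of all tested genes 30.7% overlap another gene model, and the TruSeq RNA kit does not mark strand, so reads of overlapping genes cannot be told apart. Among genes named below this also touches SARD1, FRK1, MPK3, TCH3, ABI1, FER1, KNOLLE, TSO2 and SKOR. In RNA of seedlings, fewer cells of a type and less RNA per cell cannot be told apart either.

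One stretch of chromosome 5 stood apart as a block and was looked for after values were seen. It holds the genes that start between 19500001 and 24100000 (TAIR10), a run of 100000-base windows whose median log2 fold change over genes of at least 5 RPKM was under -0.2 in the authors' deposited table. Of its 1096 tested genes, 398 were called lower (36.3%) and 6 higher in jmj28, which is 23.2% of all lower calls in the authors' deposited table. Of its 701 genes of at least 5 RPKM, 659 had a log2 fold change below 0, with a median of -0.41 and quartiles of -0.59 and -0.25 in the authors' deposited table. Over these genes the median was -0.01 for jmj28 over WT and 0.40 for JMJ28np5-OE over WT in the authors' deposited tables. So JMJ28np5-OE was the genotype that stood apart there, and its libraries were alike, at a median log2 ratio of 0.03 between the shallower and the deeper one. Outside the stretch 965 of 22444 tested genes (4.3%) were called higher and 1318 (5.87%) lower in the authors' deposited table. Counts without the stretch are given below for the channel, bHLH, cold, abscisic acid and clock genes, and it held at most 2 called genes of any other list or family. Genes named below that lie in it are marked, and its cause was not tested. Of 107 windows of 1000000 bases with at least 50 tested genes on the nuclear chromosomes, 5 had a median beyond 0.2 in either direction in the authors' deposited table, and 4 of these lie in the stretch. The other, on chromosome 2 from 3000001 to 4000000, had a median of -0.94 with 2 of its 66 genes called lower in the authors' deposited table. Genes of the mitochondrial genome were low too, at a median of -0.84 over 76 tested genes with 1 called lower, and chloroplast genes had a median of 0.34 over 65 with none called in the authors' deposited table.

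**Figure D1:**
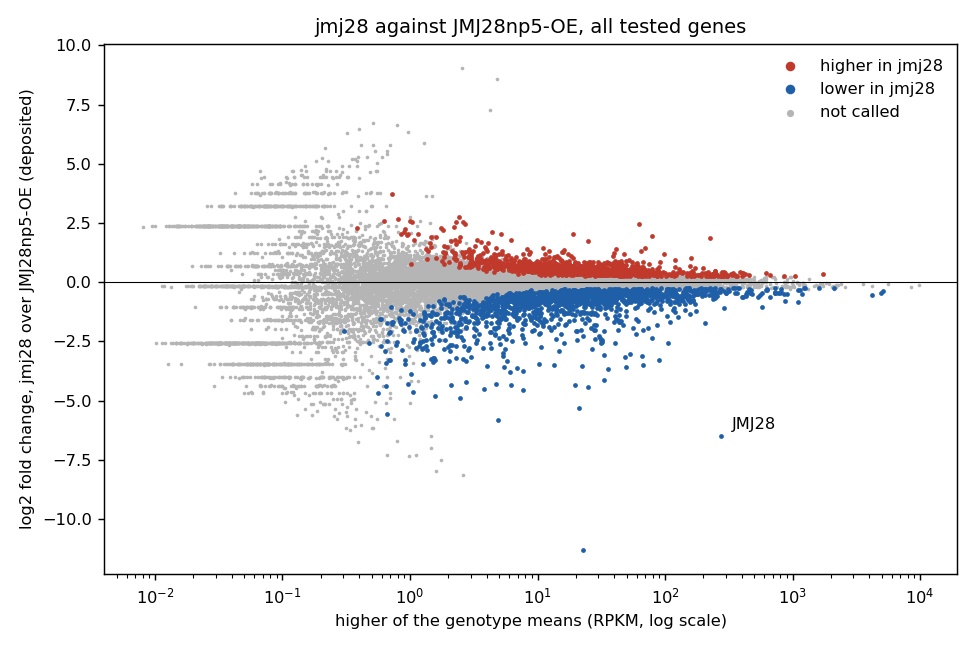
Log2 fold change of jmj28 over JMJ28np5-OE from the authors' deposited table (y axis) against the higher genotype mean in RPKM (x axis, log scale) for all tested genes. Red points are called higher and blue points lower in jmj28, and grey points are not called. JMJ28 stands at -6.49, and the lowest point is ERF105, which was listed at 0 in jmj28, so its fold has no interpretable size.

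The promoters printed here belong to called list members whose window holds the motif and overlaps no gene model, taken by smallest FDR. Picked in this way, they do not show how common a motif is in a list. They are the 300 bases before the annotated gene start, read from the RefSeq TAIR10.1 genome, whose nuclear coordinates equal those of TAIR10, and they are written 5′ to 3′ on the gene's own strand. ZAT10 and WRKY40 come from the rapid stress genes. The W-box core TTGAC, known to be bound by WRKY factors, is in capitals on either strand (where it reads GTCAA on the printed one). PLDZETA2 and PS2 come from the phosphate starvation genes, with GNATATNC, the P1BS element known to be bound by the phosphate regulator PHR1, in capitals. MCM3 comes from the DNA replication genes, with TTCCCGC, the core of sites of E2F cell cycle factors, in capitals.
ZAT10 (chr1:9649324-9649623, minus strand): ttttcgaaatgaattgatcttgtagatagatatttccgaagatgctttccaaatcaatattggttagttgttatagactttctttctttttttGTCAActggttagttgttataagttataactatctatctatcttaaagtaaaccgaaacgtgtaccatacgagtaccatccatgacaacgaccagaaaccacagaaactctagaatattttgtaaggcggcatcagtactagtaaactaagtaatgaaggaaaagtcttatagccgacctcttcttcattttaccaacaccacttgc
WRKY40 (chr1:30383261-30383560, plus strand): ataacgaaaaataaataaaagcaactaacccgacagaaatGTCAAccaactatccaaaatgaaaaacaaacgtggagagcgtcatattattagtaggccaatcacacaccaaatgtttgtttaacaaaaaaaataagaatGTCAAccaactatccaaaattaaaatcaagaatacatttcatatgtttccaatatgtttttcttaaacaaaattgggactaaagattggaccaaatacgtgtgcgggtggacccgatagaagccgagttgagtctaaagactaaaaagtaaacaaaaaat
PLDZETA2 (chr3:1634894-1635193, plus strand): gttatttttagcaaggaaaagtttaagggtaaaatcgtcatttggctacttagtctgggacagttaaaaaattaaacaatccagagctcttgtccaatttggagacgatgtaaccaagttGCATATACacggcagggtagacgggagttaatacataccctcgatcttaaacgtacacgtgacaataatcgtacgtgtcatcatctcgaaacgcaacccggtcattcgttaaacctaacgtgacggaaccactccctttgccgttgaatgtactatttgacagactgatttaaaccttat
PS2 (chr1:27466349-27466648, minus strand): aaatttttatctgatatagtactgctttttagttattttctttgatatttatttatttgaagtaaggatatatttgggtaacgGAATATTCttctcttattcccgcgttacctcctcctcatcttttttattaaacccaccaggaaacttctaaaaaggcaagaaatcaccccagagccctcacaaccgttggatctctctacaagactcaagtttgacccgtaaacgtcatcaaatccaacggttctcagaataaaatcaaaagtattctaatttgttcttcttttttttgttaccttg
MCM3 (chr5:18773707-18774006, minus strand): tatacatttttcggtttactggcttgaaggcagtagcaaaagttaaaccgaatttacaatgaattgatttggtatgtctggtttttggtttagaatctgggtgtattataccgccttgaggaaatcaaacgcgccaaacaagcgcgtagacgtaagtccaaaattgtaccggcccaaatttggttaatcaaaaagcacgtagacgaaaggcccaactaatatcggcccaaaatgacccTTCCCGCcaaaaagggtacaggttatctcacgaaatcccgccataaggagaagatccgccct

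All motifs were searched on both strands. Such matches describe letters in a window and are not evidence of binding. TTGAC was found in 18 of 24 early stress factor promoters (75.0%), 9 of 18 salicylic acid promoters (50%) and 50.6% of all 23025 promoters read. GNATATNC was found in 6 of 17 phosphate starvation promoters (35.3%) and 6.48% of all. TTCCCGC was found in 5 of 16 DNA replication and mitosis promoters (31.2%) and 1.36% of all. AAATATCT, the core of the evening element of clock genes, was found in 6 of 14 evening clock promoters (42.9%), in 1 of 11 morning clock promoters (9.09%) and in 5.82% of all. CGCGTT, known as a rapid stress response element, was found in 0 of 24 early stress factor promoters, 1 of 13 touch and calcium promoters (7.69%) and 3.22% of all. The G-box CACGTG was found in 4 of 19 jasmonate output promoters (21.1%), 3 of 14 iron regulator promoters (21.4%), 3 of 13 abscisic acid promoters (23.1%) and 7.77% of all. The telo-box AAACCCTA was found in 2 of 16 DNA replication and mitosis promoters (12.5%) and 4.33% of all. Over the called genes the shares were closer to all promoters, with 52.3% of 1699 lower genes and 47.8% of 967 higher genes holding TTGAC. AAATATCT stood in 8.36% of the lower genes, and AAACCCTA in 5.58% of the higher and 2.65% of the lower genes. Windows were searched whole, and 7546 of them run into another gene model.

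Transcription factors of the rapid stress response were among the groups with the lowest values in jmj28. These genes are known to be induced within minutes by wounding, touch, cold or microbes and to be silent again soon after. The authors' deposited table called 20 of the 24 early stress factors lower and none higher, and 17 of the 20 were at least 2-fold lower. The median log2 fold change over the 24 was -2.0 in the authors' deposited table, against -0.015 over all genes.

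ZAT10, a zinc finger repressor of stress responses whose promoter is shown above, had a derived mean of 2.91 RPKM in jmj28, against 28 and 42.9 RPKM in JMJ28np5-OE and 13.7 and 5.74 RPKM in WT. Its log2 fold change was -3.67 (listed FDR 0) by the authors' deposited table. The JMJ28np5-OE libraries were higher than either WT library, and the jmj28 mean lay under all 4. WRKY40, a repressor of defence genes that overlaps another gene model, had a derived mean of 1.23 RPKM in jmj28 and 7.32 and 19.4 RPKM in JMJ28np5-OE, with a log2 fold change of -3.5 (listed FDR 0) by the authors' deposited table. The shallower JMJ28np5-OE library carried much of that difference, and without it the log2 ratio of RPKM means was -2.57. ERF104, an ethylene response factor and a target of MAP kinase signalling, had a derived mean of 7.95 RPKM in jmj28 and 49.9 and 81.5 RPKM in JMJ28np5-OE, with a log2 fold change of -3.1 (listed FDR 0) by the authors' deposited table. The same order of genotypes held for ZAT6, with a derived mean of 4.9 RPKM in jmj28 and 16.6 and 29.1 RPKM in JMJ28np5-OE.

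Several of these factors were near 1 RPKM or lower in the mutant. ERF018 (annotated as ORA47 in RefSeq), a regulator of jasmonate synthesis that overlaps another model, had a derived mean of 1.01 RPKM in jmj28 and 11.2 and 27.9 RPKM in JMJ28np5-OE, with a log2 fold change of -4.33 (listed FDR 0) by the authors' deposited table. Without the shallower JMJ28np5-OE library its log2 ratio of RPKM means was -3.46. ERF13, another ethylene response factor, had a derived mean of 0.253 RPKM in jmj28 and 3.77 and 5.66 RPKM in JMJ28np5-OE, at -4.28 (FDR 8.92e-08) by the authors' deposited table. ERF105, which lies in the chromosome 5 stretch, was listed at 0 in both jmj28 and both WT libraries and at 9.79 and 35.9 RPKM (117 and 368 reads) in JMJ28np5-OE. It overlaps another gene model, and its fold against 0 is not given. The 4 factors that were not called were ZAT11, AZF1, AZF3 and ERF109 (listed as RRTF1 in RefSeq), of which ZAT11 had 1.1 and 1.08 RPKM in jmj28, against a derived mean of 0.513 RPKM in JMJ28np5-OE.

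Touch genes, calcium sensors and the enzymes that shorten stress transcripts were lower with them, with 10 of 13 called in the authors' deposited table, none higher, at a median log2 fold change of -1.94. CAF1A (listed as CAF1-9), a deadenylase that removes poly(A) tails, had a derived mean of 4.27 RPKM in jmj28 and 37.5 and 60.5 RPKM in JMJ28np5-OE, with a log2 fold change of -3.58 (listed FDR 0) by the authors' deposited table. TCH4, a xyloglucan endotransglucosylase of the chromosome 5 stretch that remodels cell walls after touch, had a derived mean of 6.05 RPKM in jmj28 and 23.6 and 39 RPKM in JMJ28np5-OE, at -2.43 (listed FDR 0) by the authors' deposited table. For both genes the libraries of JMJ28np5-OE differed between themselves but lay far above the jmj28 mean. The calmodulin-like TCH3 and the zinc finger genes SZF1 and CZF1 were also lower, with log2 fold changes of -2.03, -2.58 and -1.58 in the authors' deposited table. Of all calmodulin-like genes 10 of 37 were called lower and none higher in the authors' deposited table, and of the MAP kinase cascade 5 of 50 lower and none higher, a share close to that of all genes. Among the kinases, MKK9, an activating kinase of the cascade, had a derived mean of 7.07 RPKM in jmj28 and 20.7 and 34.7 RPKM in JMJ28np5-OE, at -2.03 (listed FDR 0) by the authors' deposited table, while MPK3 stood at -0.59 (FDR 0.000276).

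The mitochondrial carriers followed. PUMP4 (annotated as DIC2 in RefSeq), a dicarboxylate carrier, had a derived mean of 1.97 RPKM in jmj28, against 23.5 and 43.1 RPKM in JMJ28np5-OE and 14.8 and 3.52 RPKM in WT. The authors' deposited table gave a log2 fold change of -4.14 (listed FDR 0). The WT libraries of this gene differed from each other more than the JMJ28np5-OE libraries did. PUMP5, a related carrier, had a log2 fold change of -1.4 (listed FDR 0), and these were the 2 of 6 alternative respiration genes called, both lower, in the authors' deposited table.

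**Figure D2:**
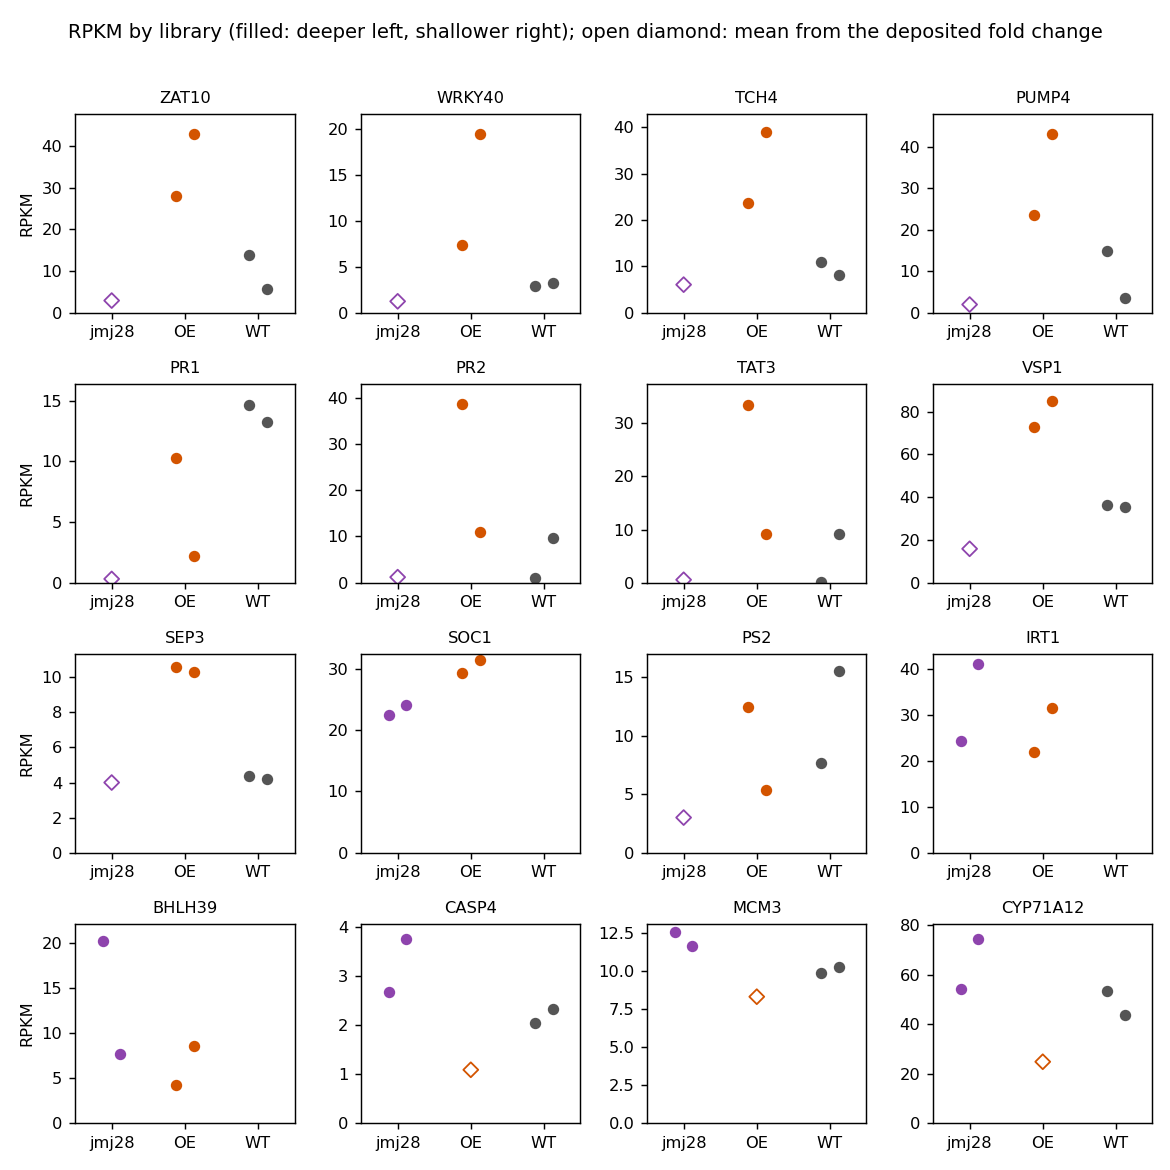
RPKM (y axes, each from 0) of 16 genes in jmj28, JMJ28np5-OE (OE) and WT. Filled points are libraries, with the deeper on the left and the shallower on the right, and open diamonds are means derived from the authors' deposited fold change. WT has no point where it was the lowest genotype. ZAT10, TCH4 and PUMP4 show jmj28 below WT and JMJ28np5-OE above it, PS2 shows jmj28 below both other genotypes, and CASP4 and MCM3 show jmj28 above WT and JMJ28np5-OE below it.

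Salicylic acid genes, which govern resistance to biotrophic microbes, were lower in jmj28 in 12 of 18 members, with none higher and a median log2 fold change of -1.02 in the authors' deposited table. All 18 had a log2 fold change below 0 in the authors' deposited table. WRKY70, a transcription factor that promotes this branch over jasmonate, had a derived mean of 19.7 RPKM in jmj28, against 55.6 and 90.5 RPKM in JMJ28np5-OE and 39.5 and 31.4 RPKM in WT. Its log2 fold change was -1.95 (listed FDR 0) by the authors' deposited table, and the JMJ28np5-OE libraries were both above the WT libraries. SARD1, which activates salicylic acid synthesis, had a derived mean of 1.04 RPKM in jmj28 and 5.05 and 3.57 RPKM in JMJ28np5-OE, at -2.1 (FDR 2.19e-09) by the authors' deposited table. WRKY54, a relative of WRKY70, stood at -1.31 (FDR 9.81e-10) by the authors' deposited table.

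The PR genes, the usual markers of this hormone, were low in jmj28 and uneven in JMJ28np5-OE. PR1 had a derived mean of 0.316 RPKM in jmj28, against 10.3 and 2.19 RPKM in JMJ28np5-OE and 14.7 and 13.2 RPKM in WT. The authors' deposited table gave a log2 fold change of -4.36 (FDR 7.20e-09), and the log2 ratio of RPKM means was -2.79 without the deeper and -5.03 without the shallower JMJ28np5-OE library. Unlike the genes above, PR1 was higher in both WT libraries than in either JMJ28np5-OE library. PR2 (listed as BGL2), a glucanase, had a derived mean of 1.21 RPKM in jmj28 and 38.6 and 11.1 RPKM in JMJ28np5-OE, at -4.41 (FDR 2.67e-09) by the authors' deposited table. Without the deeper JMJ28np5-OE library its log2 ratio was -3.19, and without the shallower it was -4.99. AIG1, a gene induced by avirulent bacteria, had a derived mean of 0.582 RPKM in jmj28 and 11 and 2.71 RPKM in JMJ28np5-OE. Its log2 fold change was -3.61 (FDR 2.57e-05) by the authors' deposited table, and the log2 ratio became -2.22 when the deeper of these libraries was left out and -4.24 when the shallower was.

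Receptor families of immunity had lower calls as well. Among the cysteine-rich receptor-like kinases, 17 of 43 were called lower and none higher in the authors' deposited table, with a median log2 fold change of -0.70. CRK18 had a derived mean of 14.4 RPKM in jmj28 and 23.7 and 34.5 RPKM in JMJ28np5-OE, at -1.07 (FDR 5.72e-09) by the authors' deposited table. Of 116 genes annotated with a TIR domain, the signalling domain of one class of intracellular immune receptors, 31 were called lower and none higher, with a median of -0.26, in the authors' deposited table. This and the other groups taken from product names were chosen after values had been seen. The neighbouring TIR genes AT1G72910, AT1G72920 and AT1G72940 had log2 fold changes of -3.04, -3.55 and -2.44 in the authors' deposited table, and AT1G72910 had a derived mean of 6.71 RPKM in jmj28 against 38.2 and 67.7 RPKM in JMJ28np5-OE. The surface receptor gene FRK1 (listed as SIRK), induced by flagellin, had a derived mean of 1.29 RPKM in jmj28, against 5.5 and 3.97 RPKM in JMJ28np5-OE and 4.02 and 5.49 RPKM in WT, so that WT and JMJ28np5-OE overlapped. Other immune signalling genes were closer, since the list of MAP kinases and immune signalling had 6 of 17 called lower and a median of -0.17 in the authors' deposited table. Cyclic nucleotide gated channels had 5 of 19 called lower and 1 higher, but 3 of the 5 lie in the chromosome 5 stretch, and outside it 2 of 16 were called lower in the authors' deposited table. MLO genes, which include powdery mildew susceptibility factors, had 4 of 14 called lower (28.6%) and none higher in the authors' deposited table. The share called lower over all genes was 7.29%.

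Among the transcription factor families as a whole, ERF genes had 17 of 72 called lower (23.6%) and 0 higher in the authors' deposited table. WRKY genes had 12 of 69 lower (17.4%) and 2 higher in the authors' deposited table, against 7.29% lower over all genes. NAC genes had 10 of 92 lower (10.9%) and 0 higher, a share nearer to that of all genes, with a median log2 fold change of -0.06 in the authors' deposited table. MYB genes had 8 of 112 lower (7.14%), a share close to that of all genes, and bHLH genes had 5 of 92 lower and 4 higher, with 2 of 87 lower outside the chromosome 5 stretch, in the authors' deposited table. The family medians ranged from -0.31 for ERF to -0.05 for bHLH genes in the authors' deposited table.

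Jasmonate genes were lower as well, those of output more than those of synthesis. Jasmonates are the hormones of wounding and insect attack. Output and signalling had 9 of 19 called lower and none higher at a median log2 fold change of -1.23, and synthesis and turnover had 5 of 13 lower and none higher at -0.41 in the authors' deposited table. VSP1, a vegetative storage protein, had a derived mean of 15.9 RPKM in jmj28, against 73 and 84.8 RPKM in JMJ28np5-OE and 36.4 and 35.4 RPKM in WT. The authors' deposited table gave a log2 fold change of -2.37 (listed FDR 0), and the 2 libraries of JMJ28np5-OE lay close together, as did those of WT. The JAZ repressors, themselves targets of the hormone, had 4 of 19 listed TIFY and JAZ names called lower, with JAZ1, JAZ6 and JAZ9 at -1.19, -1.25 and -1.23 in the authors' deposited table. TAT3, a tyrosine aminotransferase induced by jasmonate, had a derived mean of 0.559 RPKM in jmj28, against 33.4 and 9.18 RPKM in JMJ28np5-OE and 0.212 and 9.15 RPKM in WT. The authors' deposited table gave -5.31 (FDR 3.21e-08), and the log2 ratio of RPKM means was -4.04 without the deeper and -5.90 without the shallower JMJ28np5-OE library, and the WT libraries differed even more. Of the synthesis genes, AOS, allene oxide synthase, had a derived mean of 45.4 RPKM in jmj28 and 52.2 and 67.5 RPKM in JMJ28np5-OE, at -0.46 (FDR 0.00865) by the authors' deposited table.

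Cold and abscisic acid genes were lower in part. The cold and dehydration list had 5 of 17 called lower and none higher, and abscisic acid turnover and signalling had 6 of 13 lower and none higher in the authors' deposited table, at medians of -0.34 and -0.17. Outside the chromosome 5 stretch, which holds RD29A, ABI2 and HAI1, the lower calls were 4 of 15 and 4 of 11 in the authors' deposited table. CBF2, an early switch of cold acclimation, was low in both genotypes, with a derived mean of 0.211 RPKM in jmj28 and 1.31 and 2.77 RPKM in JMJ28np5-OE. Its log2 fold change was -3.33 (FDR 0.000793) by the authors' deposited table, and without the shallower JMJ28np5-OE library the log2 ratio was -2.63. RD29A, a target of the CBF factors, had a derived mean of 31.2 RPKM in jmj28 and 42.8 and 49.8 RPKM in JMJ28np5-OE, a log2 fold change of -0.63 (FDR 0.00419) by the authors' deposited table. The phosphatases ABI1 and ABI2, which restrain abscisic acid signalling, stood at -0.56 and -0.89 in the authors' deposited table. Senescence and sugar starvation genes had 7 of 16 called lower and none higher, among them SEN1 with a derived mean of 8.68 RPKM in jmj28 and 21 and 36.7 RPKM in JMJ28np5-OE, at -1.79 (FDR 2.24e-12) by the authors' deposited table.

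**Figure D3:**
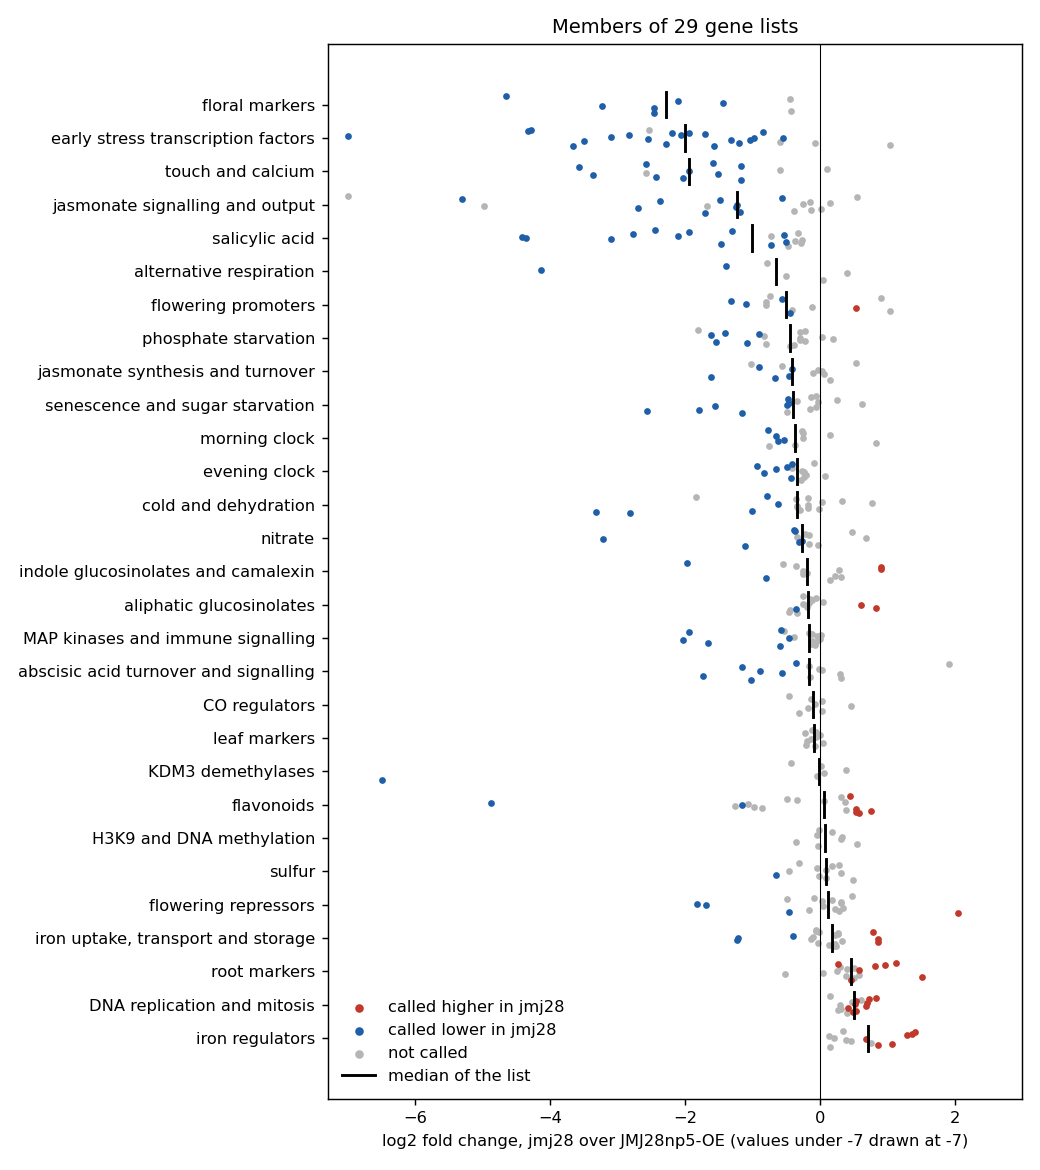
Log2 fold change of jmj28 over JMJ28np5-OE (x axis) of every tested member of 29 gene lists (rows, ordered by median), from the authors' deposited table. Red points are called higher and blue points lower in jmj28, grey points are not called, and the black bar is the list's median. ERF105 and THI2.1 are drawn at the left edge although their values lie beyond it. Among the lists shown, floral, early stress and touch genes have the lowest medians, at -2.28, -2.0 and -1.94, and iron regulators the highest, at 0.71. The list of seed markers, with 3 tested members, is not shown.

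The JMJ28np5-OE libraries differed from each other in opposite directions for different groups, which bears on all the values above. Of 22 early stress factors with both JMJ28np5-OE libraries known, 17 were higher in the shallower library, at a median log2 ratio of 0.58. Without that library the median log2 ratio of jmj28 over JMJ28np5-OE was -1.58 over these 22, against -2.14 without the deeper one. Salicylic acid genes ran the other way, with 12 of 18 higher in the deeper library. For phosphate starvation genes it was 15 of 15, at a median log2 ratio of -0.72 between the shallower and the deeper library. In the phosphate list the median log2 ratio of jmj28 over JMJ28np5-OE was -0.22 without the deeper and -0.99 without the shallower library. The part of these library differences in the calls was not tested.

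**Figure D4:**
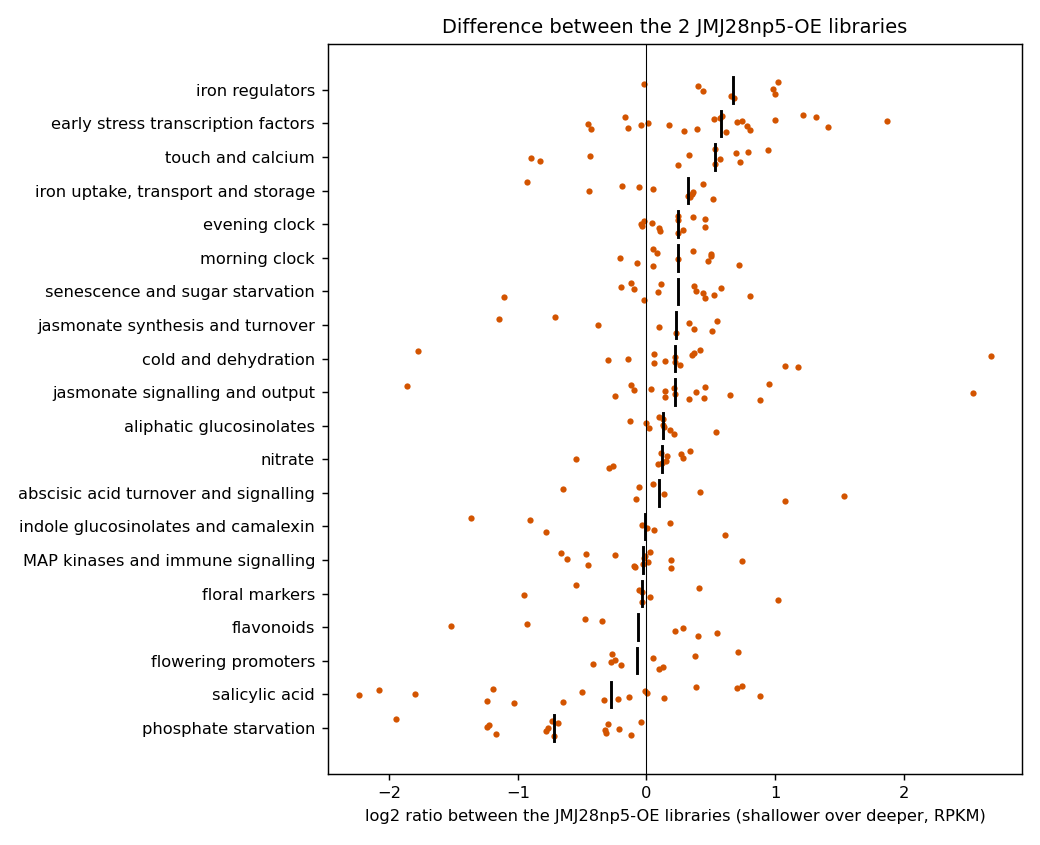
Log2 ratio of RPKM between the shallower and the deeper JMJ28np5-OE library (x axis) of members of the gene lists with at least 8 such values (rows, ordered by median). Each point is a gene and the black bar is the median. Early stress, touch and iron regulator genes were mostly higher in the shallower library, and phosphate starvation genes were all higher in the deeper one.

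Mineral nutrition genes split by element. Phosphate starvation genes, which adjust lipids and phosphate recovery when phosphate is scarce, had 5 of 17 called lower in jmj28 and none higher, with a median log2 fold change of -0.45 in the authors' deposited table. PS2, a pyrophosphatase known from phosphate starvation, had a derived mean of 3.01 RPKM in jmj28, against 12.4 and 5.32 RPKM in JMJ28np5-OE and 7.65 and 15.5 RPKM in WT. The log2 fold change was -1.62 (FDR 0.000127) by the authors' deposited table, and without the deeper JMJ28np5-OE library the log2 ratio was -0.82. PLDZETA2, a phospholipase that releases phosphate from membrane lipids, had a derived mean of 1.44 RPKM in jmj28, against 4.52 and 2.81 RPKM in JMJ28np5-OE and 2.65 and 3.97 RPKM in WT. The WT and JMJ28np5-OE libraries overlapped for both genes, and the jmj28 mean lay under all 4. Reads of PLDZETA2 cannot be told apart from those of an overlapping gene model. The galactolipid synthases MGD2 and MGD3, which make lipids without phosphorus, were lower at -1.08 and -1.54 in the authors' deposited table.

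Nitrate genes had 6 of 13 called lower and none higher, most by small amounts, at a median of -0.27 in the authors' deposited table. NRT2.1 and NRT2.5, high-affinity nitrate transporters, were over 2-fold lower in the authors' deposited table, NRT2.1 at -1.11 (FDR 0.0289). NRT2.5, known from nitrogen-starved plants, had a derived mean of 0.258 RPKM in jmj28, against 2.75 and 1.88 RPKM in JMJ28np5-OE and 2.0 and 3.4 RPKM in WT. The authors' deposited table gave a log2 fold change of -3.22 (FDR 5.77e-08). The nitrate reductase gene NIA2 had a derived mean of 227 RPKM in jmj28 and 259 and 282 RPKM in JMJ28np5-OE, at -0.31 (FDR 0.0041) by the authors' deposited table. Sulfur genes had 1 call of 11, the sulfur starvation gene LSU1, at -0.66 (FDR 0.0334) by the authors' deposited table. That share called lower, 9.09%, is close to the 7.29% over all genes.

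Iron regulators stood on the other side. The authors' deposited table called 6 of 14 higher in jmj28 and none lower, and all 14 had a log2 fold change above 0, with a median of 0.71. The size depended on single libraries. Over genes with JMJ28np5-OE libraries known, the median log2 ratio of RPKM means was 0.15 without the deeper and 1.02 without the shallower one. Over genes with jmj28 libraries known, it was 0.35 without the deeper and 1.11 without the shallower jmj28 library. The largest called changes were those of 3 loci of the list that RefSeq annotates as uncharacterized proteins, AT2G30766, AT1G47395 and AT1G47400. AT2G30766, which overlaps another gene model, had 43.9 and 39.1 RPKM in jmj28, against a derived mean of 15 RPKM in JMJ28np5-OE and 30.3 and 21.4 RPKM in WT, at 1.41 (listed FDR 0) by the authors' deposited table. AT1G47395 had 17.4 and 14.9 RPKM in jmj28 and a derived mean of 6.0 RPKM in JMJ28np5-OE, at 1.37 (FDR 3.12e-07) by the authors' deposited table. For AT2G30766 the WT libraries lay between the jmj28 libraries and the JMJ28np5-OE mean. BTS, a ubiquitin ligase that limits the iron response, had 65.8 and 56.8 RPKM in jmj28 and a derived mean of 36.8 RPKM in JMJ28np5-OE, at 0.68 (FDR 4.85e-06) by the authors' deposited table. BHLH39 (listed as ORG3), a transcription factor that partners FIT, had 20.2 and 7.68 RPKM in jmj28 and 4.25 and 8.51 RPKM in JMJ28np5-OE, so the genotypes overlapped. Its log2 fold change was 1.06 (FDR 0.0268) by the authors' deposited table, and the log2 ratio of RPKM means was 0.27 without the deeper jmj28 library and 1.71 without the shallower JMJ28np5-OE library.

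Genes of iron uptake, transport and storage split, with 3 of 20 called higher (15%) and 3 lower (15%) in the authors' deposited table. Over all genes the shares were 4.12% higher and 7.29% lower. IRT1, the iron transporter of the root epidermis, had 24.3 and 41 RPKM in jmj28 and 21.9 and 31.4 RPKM in JMJ28np5-OE, with a log2 fold change of 0.23 (FDR 0.816) by the authors' deposited table. FRO2, the ferric reductase, had 7.64 and 12.9 RPKM in jmj28 and 7.96 and 9.97 RPKM in JMJ28np5-OE, which overlapped as IRT1 did. OPT3, which moves iron and its signal in the phloem, had 96 and 87.9 RPKM in jmj28 and a derived mean of 48.7 RPKM in JMJ28np5-OE, at 0.86 (FDR 2.13e-09) by the authors' deposited table. The ferritin gene FER1, an iron store, was lower, with a derived mean of 77.7 RPKM in jmj28 and 171 and 177 RPKM in JMJ28np5-OE, at -1.22 (listed FDR 0) by the authors' deposited table. The nicotianamine synthases split, with NAS4 at 0.86 and NAS2, which lies in the chromosome 5 stretch, at -1.24 in the authors' deposited table.

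Root markers moved with the iron regulators and the division genes described next. The authors' deposited table called 7 of 17 higher and none lower, with a median log2 fold change of 0.46. Their summed level was 1140 and 1220 RPKM in the jmj28 libraries and 929 RPKM over the JMJ28np5-OE means, and none of them was at 0. CASP4, a protein of the endodermal barrier, had 2.69 and 3.76 RPKM in jmj28, against a derived mean of 1.09 RPKM in JMJ28np5-OE, at 1.51 (FDR 0.00825) by the authors' deposited table. SKOR, a potassium channel of the root stele, had 2.5 and 3.38 RPKM in jmj28 and a derived mean of 1.29 RPKM in JMJ28np5-OE, at 1.13 (FDR 0.00136) by the authors' deposited table. None of 10 leaf markers was called (1 at an unadjusted p under 0.05), at a median of -0.10 in the authors' deposited table, and their sum was 23873 RPKM in jmj28 and 25719 RPKM in JMJ28np5-OE. Of the whole light-harvesting family, 3 of 21 genes were called lower (14.3%, against 7.29% over all genes) and none higher in the authors' deposited table. In it 19 of 21 were below 0, and outside the chromosome 5 stretch 2 of 20 were called lower. Whether the share of root in the samples had a part in any of these results was not tested.

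Genes of DNA replication and mitosis were higher in jmj28 by small amounts, with log2 fold changes from 0.15 to 0.83 in the authors' deposited table. All 16 had log2 fold changes above 0, 9 were called, and the median was 0.50 in the authors' deposited table. KNOLLE, a syntaxin of the cell plate, had 30.2 and 29.7 RPKM in jmj28, against a derived mean of 16.2 RPKM in JMJ28np5-OE and 21.6 and 22.1 RPKM in WT, at 0.83 (FDR 9.81e-07) by the authors' deposited table. MCM3, a subunit of the replicative helicase, had 12.6 and 11.6 RPKM in jmj28, against a derived mean of 8.31 RPKM in JMJ28np5-OE and 9.83 and 10.3 RPKM in WT, at 0.49 (FDR 0.0137) by the authors' deposited table. For both genes each jmj28 library lay above each WT library, which lay above the JMJ28np5-OE mean. RNR1 and TSO2, the large and small subunits of ribonucleotide reductase, stood at 0.51 and 0.69, and the mitotic cyclin CYCB1;2 at 0.72 in the authors' deposited table.

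Histones, microtubule proteins and ribosomal proteins had more higher than lower calls too. Histone genes had 12 of 44 called higher and none lower, tubulin and kinesin genes 13 of 62 higher and 1 lower, and growth-regulating factors 4 of 9 higher and none lower in the authors' deposited table. Genes annotated as ribosomal proteins, those of organelles included, had 62 of 315 called higher and 5 lower, with a median log2 fold change of 0.21, and 254 of the 315 were above 0 in the authors' deposited table. These shifts were small, since no called higher ribosomal or histone gene reached 2-fold. HTA6, a histone H2A gene, had 138 and 122 RPKM in jmj28 and a derived mean of 90.3 RPKM in JMJ28np5-OE, at 0.47 (FDR 2.49e-05) by the authors' deposited table. GRF4, a growth-regulating factor, had 10.1 and 8.95 RPKM in jmj28 and a derived mean of 6.13 RPKM in JMJ28np5-OE, at 0.58 (FDR 0.0144) by the authors' deposited table. Pentatricopeptide repeat proteins, which process organelle RNA, had 15 of 266 called higher (5.64%) and 4 lower with a median of 0.20, a share called higher that is close to that of all genes in the authors' deposited table. An acidic ribosomal protein gene, RPP2C, ran against its group, with a derived mean of 0.589 RPKM in jmj28 and 5.78 and 5.74 RPKM in JMJ28np5-OE, at -3.35 (FDR 7.14e-10) by the authors' deposited table. The H3K9 and DNA methylation enzymes, by contrast, gave 0 calls of 8 (4 at an unadjusted p under 0.05) at a median of 0.08 in the authors' deposited table, and ROS1, a DNA demethylase, had 20.1 and 19.2 RPKM in jmj28 and a derived mean of 16.8 RPKM in JMJ28np5-OE.

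Flowering genes differed most at the level of floral identity. Of 8 floral genes, 6 were called lower in jmj28 and none higher, with a median log2 fold change of -2.28 in the authors' deposited table. SEP3, a MADS-box cofactor of floral organ identity, had a derived mean of 4.0 RPKM in jmj28, against 10.5 and 10.3 RPKM in JMJ28np5-OE and 4.39 and 4.18 RPKM in WT, at -1.44 (FDR 3.54e-09) by the authors' deposited table. AP1, which commits meristems to flowers, had a derived mean of 0.321 RPKM in jmj28, against 1.71 and 1.67 RPKM in JMJ28np5-OE and 0.67 and 0.481 RPKM in WT, at -2.46 (FDR 0.00013) by the authors' deposited table. The JMJ28np5-OE libraries lay close together for both genes and above WT, and the called genes other than SEP3 averaged under 1 RPKM in jmj28. The 8 genes summed to 7.05 RPKM in jmj28 and to 20.7 and 20.2 RPKM in the JMJ28np5-OE libraries. The share of floral tissue in the samples was not tested as a part of these values.

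Upstream of them the differences were smaller and mixed. SOC1, an integrator of flowering signals, had 22.4 and 24.1 RPKM in jmj28 and 29.3 and 31.4 RPKM in JMJ28np5-OE, with a log2 fold change of -0.44 (FDR 0.000687) by the authors' deposited table, and the libraries of the genotypes did not overlap. SPL3, an age pathway factor that overlaps another gene model, had a derived mean of 6.36 RPKM in jmj28, against 14.4 and 11.9 RPKM in JMJ28np5-OE and 12.6 and 11.9 RPKM in WT, at -1.11 (FDR 5.94e-06) by the authors' deposited table. Flowering promoters as a list had 4 of 12 called lower and 1 higher, AGL24, in the authors' deposited table. Flowering repressors as a list had 3 of 16 called lower (18.8%) and 1 higher (6.25%) in the authors' deposited table. Over all genes the shares were 7.29% lower and 4.12% higher. Of the 16 repressors, 10 had a log2 fold change above 0, and the median was 0.11 in the authors' deposited table. Among the repressors, TEM1 and TEM2, which act against FT and gibberellin synthesis, were both lower. SVP was called lower too, at -0.46 (FDR 5.54e-05) by the authors' deposited table. TEM1 had a derived mean of 14.3 RPKM in jmj28, against 39.5 and 49.3 RPKM in JMJ28np5-OE and 35.6 and 23.2 RPKM in WT, at -1.69 (listed FDR 0) by the authors' deposited table. FLC, the repressor removed by cold winters, was called higher at a low level, with 0.876 and 1.44 RPKM (14 and 20 reads) in jmj28, against a derived mean of 0.268 RPKM in JMJ28np5-OE and 1.12 and 0.829 RPKM in WT, at 2.05 (FDR 0.0396) by the authors' deposited table. The jmj28 and WT libraries overlapped, and the gene overlaps another gene model. The FBH and CDF regulators of CO gave 0 calls of 8 (2 at an unadjusted p under 0.05), and FBH4, the closest to the threshold, had a log2 fold change of 0.45 (FDR 0.0656) by the authors' deposited table.

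Clock genes were lower by modest amounts in jmj28, with 6 of 14 evening genes and 4 of 11 morning genes called lower and none higher in the authors' deposited table. The evening genes BOA and ZTL and the morning gene RVE6, all called lower, lie in the chromosome 5 stretch, and outside it 4 of 12 evening and 3 of 10 morning genes were called lower in the authors' deposited table. COR27, an evening gene also known from cold and blue light responses, had a derived mean of 36.4 RPKM in jmj28, against 44.7 and 53.2 RPKM in JMJ28np5-OE and 39.2 and 40.5 RPKM in WT, at -0.48 (FDR 0.00659) by the authors' deposited table. PRR7, a repressor of the morning loop, had 21.5 and 21.4 RPKM in jmj28 and 26.6 and 37 RPKM in JMJ28np5-OE, at -0.63 (FDR 7.70e-05) by the authors' deposited table. The libraries of the genotypes did not overlap for either gene, as far as they are known. The hour of harvest is not given in the labels.

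Specialized metabolism showed splits within pathways. The early flavonoid enzymes CHS, CHI, F3H and FLS1 and the helper CHIL were called higher in jmj28, and of the later anthocyanin genes TT19 and the regulator MYB90 were called lower, which together make the 5 higher and 2 lower calls of 17 in the authors' deposited table. F3H, flavanone 3-hydroxylase, had 36 and 35.7 RPKM in jmj28, against a derived mean of 20.4 RPKM in JMJ28np5-OE and 22.4 and 22.2 RPKM in WT, at 0.76 (FDR 1.27e-10) by the authors' deposited table. CHS, chalcone synthase, had 183 and 162 RPKM in jmj28 and a derived mean of 111 RPKM in JMJ28np5-OE, at 0.58 (FDR 0.000168) by the authors' deposited table. MYB90, which activates anthocyanin synthesis, had a derived mean of 0.0865 RPKM in jmj28 and 3.22 and 1.69 RPKM in JMJ28np5-OE, at -4.89 (FDR 0.000358) by the authors' deposited table. F3H and CHS overlap other gene models. Aliphatic glucosinolate genes had 2 called higher and 1 lower of 14, with MAM3 at 0.83 and the related chain elongation enzyme MAM1 at -0.36 in the authors' deposited table. The indole branch had 2 of 13 called in each direction, with the methyltransferase genes IGMT1 and IGMT2 higher at 0.90 and 0.90 and the regulator MYB51 lower at -0.80 in the authors' deposited table. The other lower call was CYP71A13, a cytochrome P450 of camalexin synthesis, at -1.97 (FDR 0.0383) by the authors' deposited table, and without the deeper JMJ28np5-OE library the log2 ratio was -1.08.

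Single genes outside these groups reached larger changes. AT5G37940, annotated as a zinc-binding dehydrogenase, had a derived mean of 0.0903 RPKM in jmj28, against 4.5 and 5.31 RPKM in JMJ28np5-OE and 0.143 and 0.493 RPKM in WT, at -5.82 (FDR 2.69e-09) by the authors' deposited table. AT5G22430, annotated as a pollen Ole e 1 allergen and extensin family protein, had a derived mean of 0.342 RPKM in jmj28, against 5.28 and 10.2 RPKM in JMJ28np5-OE and 0.321 and 0.368 RPKM in WT. In both genes JMJ28np5-OE alone stood apart, while jmj28 and WT were low. ATSBT3.12, a subtilase gene at AT4G21326, lies near JMJ28 (AT4G21430) by locus number. It had a derived mean of 0.60 RPKM in jmj28, against 6.14 and 9.36 RPKM in JMJ28np5-OE and 3.92 and 3.95 RPKM in WT. The jmj28 mean was thus far under the other genotypes, and the log2 fold change of jmj28 over WT was -2.75 (listed FDR 0) in the authors' deposited table. Whether its place near JMJ28 had a part in this was not tested. The methyltransferase gene FAMT and the small peptide gene DVL10 were lower at -3.8 and -4.52 in the authors' deposited table.

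Among higher genes a run of neighbours on chromosome 4 stood out and was picked after values were seen. Of 12 tested genes from AT4G22460 to AT4G22530, 7 were called higher and none lower, with a median log2 fold change of 1.32 in the authors' deposited table. The jmj28 libraries differed here: over the genes with both known, the median log2 ratio of jmj28 over JMJ28np5-OE was 0.65 without the deeper and 2.12 without the shallower jmj28 library, against 1.48 with both. AT4G22485, annotated as a lipid-transfer protein, had 72.5 and 52.9 RPKM in jmj28, against a derived mean of 11.1 RPKM in JMJ28np5-OE and 33.4 and 39.1 RPKM in WT, at 2.44 (FDR 2.54e-13) by the authors' deposited table. AT4G22505, from the same family, had 89.1 and 70.2 RPKM in jmj28, against a derived mean of 19.8 RPKM in JMJ28np5-OE and 47.3 and 52.4 RPKM in WT. Several of these genes are similar copies and overlap other gene models, so how reads were shared among them is uncertain. Elsewhere, FOX2, a berberine bridge enzyme family gene, had 15.9 and 33.9 RPKM in jmj28 and a derived mean of 7.21 RPKM in JMJ28np5-OE, at 1.73 (FDR 3.41e-10) by the authors' deposited table, and without the shallower jmj28 library the log2 ratio was 1.14. CYP71A12, a cytochrome P450 of indole defence compounds and a close relative of CYP71A13, with which reads could have been exchanged, had 54.1 and 74.6 RPKM in jmj28 and a derived mean of 24.8 RPKM in JMJ28np5-OE, at 1.32 (FDR 3.24e-10) by the authors' deposited table. NPF2.9, a nitrate transporter gene that overlaps another model, stood at 1.26 (FDR 6.47e-09) by the authors' deposited table. Of the class III peroxidases, enzymes of the cell wall, 9 of 68 were called higher (13.2%) and 3 lower (4.41%) in the authors' deposited table. Of the germin-like proteins 4 of 11 were called higher (36.4%) and none lower in the authors' deposited table. Over all genes the shares were 4.12% higher and 7.29% lower.

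Set beside WT, the groups did not all sit on the same side of it. Each comparison shares its libraries with the others, so the values are given only side by side. For early stress factors the median log2 fold change was -0.57 for jmj28 over WT and 1.18 for JMJ28np5-OE over WT in the authors' deposited tables. For floral genes it was -0.87 and 1.42, and for salicylic acid genes -0.44 and 0.64, in the same order in the authors' deposited tables. Of the called floral genes all but SEP3 averaged under 1 RPKM in jmj28, and SEP3 in jmj28 was only slightly under the WT libraries. Phosphate starvation genes had -0.71 for jmj28 over WT and -0.08 for JMJ28np5-OE over WT in the authors' deposited tables. The WT libraries differed from each other as well. Of the genes with both WT libraries known, 15 of 20 early stress factors but 1 of 17 phosphate starvation genes were higher in the deeper one. The part of the WT library differences in these medians was not tested. Iron regulators had 0.63 for jmj28 over WT and 0.07 for JMJ28np5-OE over WT, and the DNA replication and mitosis genes had 0.25 and -0.23 in the same order in the authors' deposited tables.

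**Figure D5:**
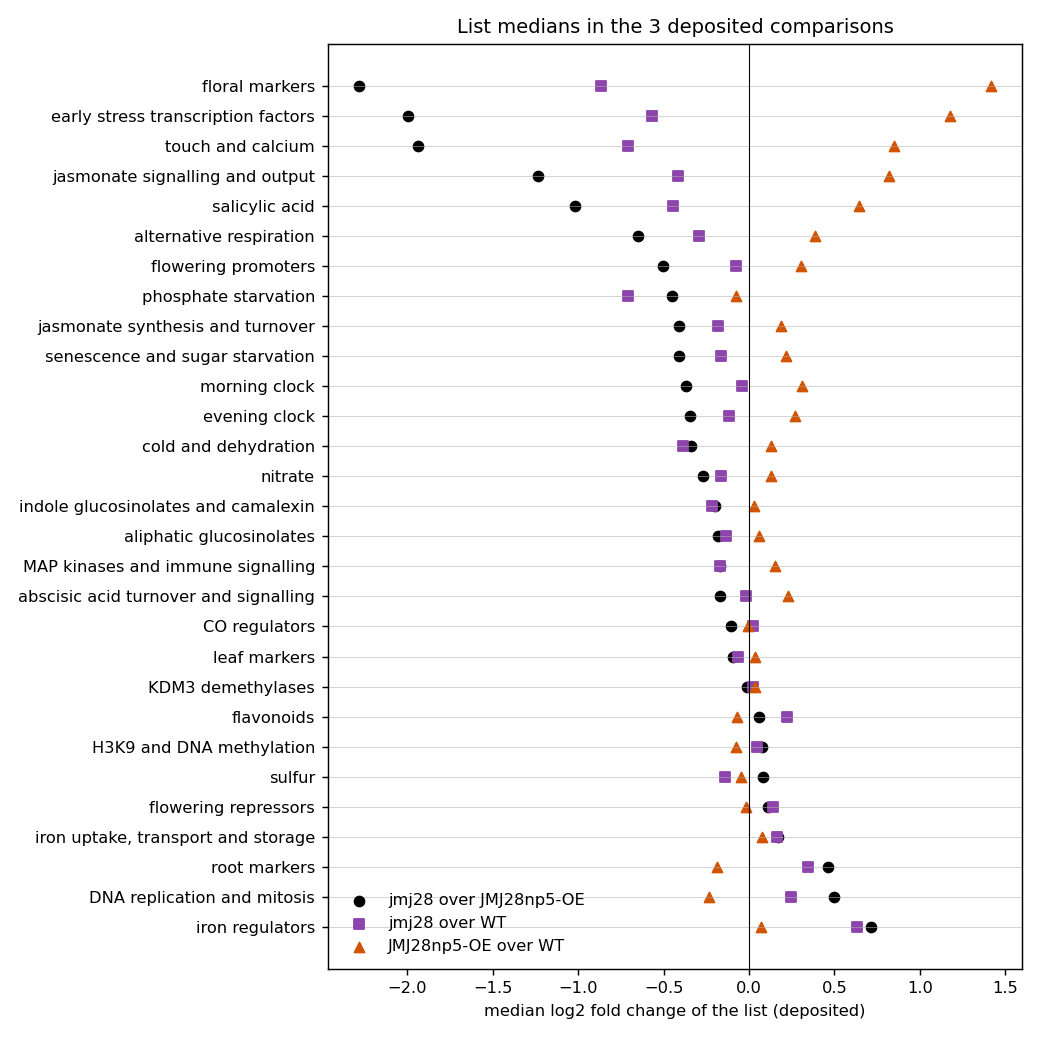
Median log2 fold change (x axis) of 29 gene lists (rows) in the authors' deposited tables, for jmj28 over JMJ28np5-OE (black circles), jmj28 over WT (purple squares) and JMJ28np5-OE over WT (orange triangles). The comparisons share libraries. Early stress and floral genes lie on opposite sides of 0 in the comparisons with WT, while the phosphate starvation list is at -0.08 in JMJ28np5-OE and -0.71 in jmj28. The called floral genes other than SEP3 averaged under 1 RPKM in jmj28. The WT libraries differed in opposite directions for early stress and phosphate starvation genes.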

How the data were processed

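RNA-seq libraries of jmj28 and JMJ28np5-OE seedlings, 2 each, were made with the Illumina TruSeq RNA kit and read as pairs of 150 bases, per the labels. Reads were mapped to TAIR10, per the submitters' processing notes, and aligner, counter and test are not given in the sources used for this work. The deposited tables hold, per the file headers, the authors' higher group mean of a gene, in RPKM by its values, with the log2 fold change and its p-value, both raw and adjusted (FDR, Bonferroni). A signed fold change is deposited beside them, a score that is negative where the first genotype is lower.

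From the deposited higher means of all 3 genotype pairs, whole read numbers of 2 libraries were solved for each gene (tolerance 1e-07 reads), which worked for 98.9% of the highest and 98.9% of the second-highest means. The lowest mean was computed from the other mean and the deposited fold change after an offset of 0.0575 (log2), which held within -0.0174 to 0.0172 for the middle 90% of 4442 genes where both means were known. Library ratios in the text are log2 ratios of RPKM. Values per library were not at hand for most genes, so the authors' test was used for all genes. limma 3.58.1 (R 4.3.3) with trend was run on log2(RPKM + 1) of 6097 genes, those with all 4 libraries known (6442) other than 345 at 0 in all of them, with Benjamini-Hochberg adjustment. In none of the 6097 was the WT mean above that of jmj28 or JMJ28np5-OE. Solving and testing were checked on simulated data. Python 3.11.15, pandas 2.3.3, numpy 2.4.6, scipy 1.17.1 and matplotlib 3.10.9 did the rest. Depth was 10632893 to 13549528 reads per library, so genes under 1 RPKM rest on few reads.

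The comparison and the 30 gene lists were chosen with earlier results of these data known. The 27 families go by symbol, and 11 groups go by product name or position and were chosen after values were seen. Named genes are JMJ28, the 15 largest called changes in each direction at 3 RPKM or more (at most 3 without a symbol), up to 5 called members of a list and 3 of a family by FDR, or the 2 highest members of a list without calls. AT1G62310, ZAT11, AZF1, AZF3, ERF109, CHI, TT19, IRT1, FRO2, FBH4 and MCM3 were named outside that rule after their values were seen. Of 34262 listed genes 10720 had no reads. Names not in the tables were taken from RefSeq, which holds 32548 of the listed loci, 32532 with the same coordinates.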

Additional observations from a re-analysis of the deposited data

How the results depend on the processing

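The direction of all 474 leave-one-library-out values of named called genes was kept, and those of genes described with values above that moved by over 1.5 times stand beside them. Only recovered libraries could be left out, while derived means stayed as they were. Both JMJ28np5-OE libraries lay above the jmj28 mean in 1688 of 1688 genes called lower with these libraries known. Both jmj28 libraries lay above the JMJ28np5-OE mean in 963 of 963 such genes called higher. The kept directions thus add little to the calls. Against 2687 called genes (971 higher, 1716 lower), the authors' deposited tables gave 1667 (472 and 1195) at FDR under 0.01, 630 (101 and 529) by Bonferroni, 1497 (446 and 1051) at 1.5-fold or more and 639 (116 and 523) at 2-fold or more. Asking that both libraries of the higher genotype lie 1.5-fold above the other mean, an alternative chosen after seeing the data, gave 1103 (404 and 699), and leaving out the chromosome 5 stretch, also chosen then, gave 2283 (965 and 1318). Adjusting over tested genes only gave 3072, a minimum of 1 RPKM with new adjustment 3225, and leaving out overlapping genes 1930. The limma count of 1 became 2 with a pseudocount of 0.1, 0 with a pseudocount of 5 and 0 to 0 with each library left out in turn, which leaves a genotype with 1 library that is assumed to vary like the other; 383 genes had an unadjusted p under 0.05. Of 60 list counts 56 stayed within 1.5 times; at FDR under 0.01 the calls became 3 for nitrate, 0 for sulfur, 2 for flowering promoters and 4 for root markers, against 6, 1, 5 and 7, and the cause was not tested. No paired analysis was possible because the recovered libraries carry no replicate number. Depth limits genes such as FLC, NRT2.5, MYB90, AT5G37940 and most floral genes, which rest on few reads.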
